A study of Mus musculus with 12 samples.

Results

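The acute phase response is the change in secreted proteins that follows injury or infection. It is driven by interleukin-6 (IL-6) family cytokines acting through the transcription factor Stat3 and by interleukin-1 acting through NF-kB, and it is best known in the liver, although many of its genes are also used by other tissues. Socs3 is the feedback inhibitor that Stat3 induces and that limits signalling through the IL-6 receptor. The 8 genes described here are acute phase or Stat3-driven genes, taken as the probes whose gene name on the array was Slpi, Lcn2, Saa3, Hp, Lrg1, Cp, Il1rn or Pim1, of 34797 gene names in all. The set was selected on measured values in part, since it was proposed with earlier results of these data in view, in which Slpi and Lcn2 stood out between the genotype labels before challenge and Slpi at day 3. Differences between the genotype labels are therefore given here as a description with no test, and tests are given only for the response to challenge. Of the 8 genes, which had 9 probes, 7 passed the filter on dim probes and entered the fit, and Il1rn did not.

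RNA from the whole aorta of male mice of mixed 129S5/SvEvBrd, C57BL6 and SJL background was hybridised to 12 one-colour arrays, 3 in each of 4 groups. All mice carried Socs3 alleles flanked by loxP sites (Socs3 fl/fl). WT mice were littermates without Cre, and mice labelled smSocs3-KO also carried Cre under the SM22 promoter, which is active in smooth muscle. Each genotype was sampled before challenge and at day 3 of a combined infusion, by osmotic minipump, of BAPN (β-aminopropionitrile, 150 mg/kg/day, an inhibitor of collagen and elastin crosslinking) and AngII (angiotensin II, a vasoconstrictor peptide, at 1000 ng/kg/min), a model of aortic dissection. The aorta holds endothelial cells, fibroblasts, adipocytes and blood cells besides smooth muscle, so that a lower signal from fewer cells of a type cannot be told apart from less RNA per cell. Whether an array was 1 mouse or a pool is not given in the sources used here, and p-values measure only the spread between these samples.

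Levels are log2 processed signals minus the 75th percentile of the array, so that 0 is the level of that percentile and levels of different genes are not comparable. Differences are differences of these log2 levels, with the standard error (SE) of the fit. Between 55.4% and 61.2% of spots were well above background on each array and none were saturated, and the number of arrays limits the precision. Socs3 itself was not lower under the smSocs3-KO label. Its mean level was 0.45 in WT aortas and 0.94 in smSocs3-KO aortas before challenge, and 1.72 and 3.24 at day 3. Which part of Socs3 the deletion removes, and whether the probe lies in it, is not given in the sources used here. Slide 1 held all 6 WT arrays and smSocs3-KO replicate 1 before challenge, and slide 2 held the other 5 smSocs3-KO arrays, so at day 3 slide and genotype label cannot be told apart. WT replicate 4 at day 3 stood apart from its group. Without it, 2268 genes passed as higher at day 3 in WT aortas, against 816 with it.

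The sequences just before the start sites of Slpi, Lcn2 and Saa3 are shown because these 3 members had the largest differences between the genotype labels. Each run is the 250 bases upstream of the first RefSeq start site on GRCm38.p6, read 5′ to 3′ on the strand of the gene. Capitals mark matches on either strand to TTGCNNAA, a short form of the C/EBP element, or to a short form of the NF-kB element, GGG and CC with any 5 bases between them. They lie at chr2:164356508-164356757 (Slpi, minus strand), chr2:32387740-32387989 (Lcn2, minus strand) and chr7:46715677-46715926 (Saa3, minus strand).
Slpi: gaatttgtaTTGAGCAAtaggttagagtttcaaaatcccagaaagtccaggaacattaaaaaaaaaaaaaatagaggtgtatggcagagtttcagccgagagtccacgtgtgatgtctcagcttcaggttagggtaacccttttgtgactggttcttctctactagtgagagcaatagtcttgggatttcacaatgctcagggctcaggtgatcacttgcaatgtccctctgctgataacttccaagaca
Lcn2: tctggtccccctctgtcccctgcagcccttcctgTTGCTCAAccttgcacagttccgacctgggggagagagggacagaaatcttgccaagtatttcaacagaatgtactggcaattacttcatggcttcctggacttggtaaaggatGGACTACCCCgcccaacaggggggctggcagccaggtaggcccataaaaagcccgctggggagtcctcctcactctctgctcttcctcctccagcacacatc
Saa3: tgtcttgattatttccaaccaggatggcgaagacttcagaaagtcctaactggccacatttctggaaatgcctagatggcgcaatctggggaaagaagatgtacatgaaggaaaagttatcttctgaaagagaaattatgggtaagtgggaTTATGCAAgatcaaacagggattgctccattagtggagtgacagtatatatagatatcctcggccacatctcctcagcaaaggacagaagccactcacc
All 3 windows held 1 match to TTGCNNAA, 241 to 234 bases upstream of the start in Slpi, 216 to 209 in Lcn2 and 99 to 92 in Saa3. Lcn2 alone of the 3 also held a match to the NF-kB form, 102 to 93 bases upstream, which did not overlap the first. No window held TTCNNNGAA, the Stat element. Over the 7 members with a RefSeq promoter (all but Hp), which had 11 start sites, TTGCNNAA was found in 4 genes (Slpi, Lcn2, Saa3 and Cp), the NF-kB form in 5 (Lcn2, Lrg1, Cp, Il1rn and Pim1, with matches overlapping each other in Pim1) and TTCNNNGAA in 0. The shares of all 27025 genes in the same table with a match in this window were 10.8%, 48.7% and 8.13%, respectively. A match is a run of letters and not a measured binding site.

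Among the secreted proteins that guard against microbes and proteases, Slpi and Lcn2 were higher on every array with the smSocs3-KO label than on any WT array. Slpi, secretory leukocyte protease inhibitor, protects tissue from neutrophil elastase. Before challenge it read 1.97, 0.13 and -1.10 on the WT arrays (replicates 1, 2 and 3) and 5.55, 4.26 and 5.41 on the smSocs3-KO arrays (replicates 1, 3 and 4). At day 3 it read 3.10, -3.74 and 0.30 on the WT arrays (replicates 1, 3 and 4) and 5.64, 5.41 and 5.18 on the smSocs3-KO arrays (replicates 2, 3 and 5), and other genes are given in the same order of replicates. All 6 smSocs3-KO arrays were above all 6 WT arrays, and the WT arrays covered a far wider range. The difference between labels was 4.74 (SE 1.36), or 26.6-fold, before challenge and 5.53 (SE 1.36) at day 3. Within slide 1, where smSocs3-KO replicate 1 lay beside the 3 WT arrays before challenge, it was 5.21.

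Lcn2, lipocalin 2, binds iron-carrying siderophores and is stored in neutrophil granules as well as secreted by epithelium. Its 3 WT levels before challenge lay close together at -1.65, -1.55 and -1.50, and the smSocs3-KO levels were 2.47, 2.50 and 3.26. At day 3 the WT levels were 1.71, 1.04 and -0.94, and the smSocs3-KO levels were 4.39, 3.34 and 6.02. All 4 groups stood in the same order without overlap, WT before challenge lowest, then WT at day 3, smSocs3-KO before challenge and smSocs3-KO at day 3. Lcn2 was thus higher in smSocs3-KO aortas before any infusion than in WT aortas after it. The label difference was 4.31 (SE 0.71) before challenge, or 19.9-fold, and 3.98 (SE 0.71) at day 3, and it was 4.04 within slide 1 before challenge.

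Saa3, serum amyloid A3, is the serum amyloid made outside the liver and carries lipid during inflammation. It was not well above background on any WT array before challenge, where it read -6.33, -6.35 and -5.09. At day 3 it read -1.80, -3.23 and -5.43 in WT aortas, and replicate 4, the lowest, was again not well above background. The smSocs3-KO arrays read -2.17, 0.27 and 5.12 before challenge and 5.46, 3.33 and 7.23 at day 3, and all 6 were well above background. These 2 groups overlapped, since replicate 4 before challenge was above replicate 3 at day 3. Against the WT arrays before challenge, with each WT array set to the lowest signal well above background on it, Saa3 was at least 42.7-fold higher in smSocs3-KO aortas before challenge and at least 821-fold higher at day 3. The first bound was 10.5-fold without smSocs3-KO replicate 4 and 131-fold without replicate 1, and 4.5-fold within slide 1. The second was 426-fold without smSocs3-KO replicate 5 and 1649-fold without replicate 3. Label, challenge and slide all differ in that second comparison, so it is not a label difference. The 42.7-fold and 821-fold bounds allow for neither slide nor another background correction. The smSocs3-KO arrays before challenge on slide 2 were above the one on slide 1 by a mean of 4.87. At day 3, where 2 of the 3 WT arrays measured it, the label difference was 8.82 (SE 1.63), and 3.96 with slide as a term of the fit. The size also depended on the background correction: with normexp correction the fitted difference before challenge was 3.71, against 6.99 without it, and that at day 3 was 6.92.

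**Figure D1:**
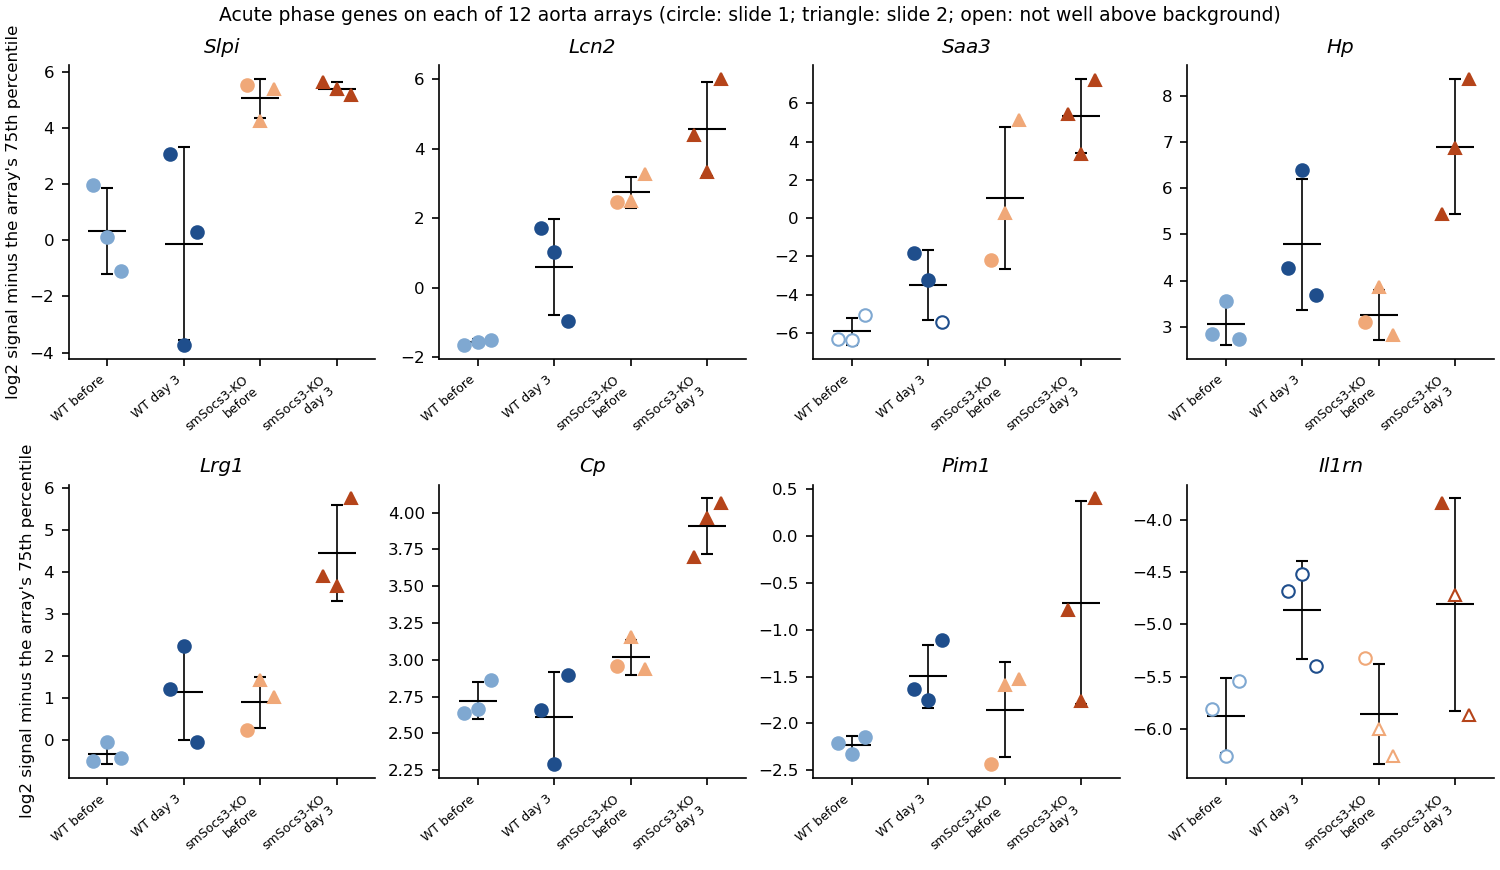
Level of each gene on the 12 arrays (log2 signal minus the 75th percentile of the array, 3 arrays a group), with the group mean and SD as bars, circles for slide 1, triangles for slide 2 and open symbols where the probe was not well above background. Slpi and Lcn2 were above every WT array on all 6 smSocs3-KO arrays, Hp and Lrg1 had their highest group mean at day 3 in smSocs3-KO aortas, and Il1rn was well above background on 1 array.

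The plasma proteins of the set, made in quantity by the liver, showed smaller label differences before challenge. Hp, haptoglobin, binds free haemoglobin. Its levels were 2.84, 3.57 and 2.74 in WT and 3.09, 3.87 and 2.82 in smSocs3-KO aortas before challenge, and 4.27, 6.39 and 3.68 in WT and 5.45, 6.87 and 8.37 in smSocs3-KO aortas at day 3. The labels overlapped at both times, and the difference was 0.21 (SE 0.77) before challenge and 2.11 (SE 0.77) at day 3. Lrg1, leucine-rich alpha-2-glycoprotein, modulates TGF-beta signalling in vessels. It read -0.52, -0.05 and -0.45 in WT and 0.22, 1.43 and 1.01 in smSocs3-KO aortas before challenge, and 1.22, 2.24 and -0.06 in WT and 3.91, 3.67 and 5.77 in smSocs3-KO aortas at day 3. The smSocs3-KO arrays were above the WT arrays at each time, by 1.23 (SE 0.63) before challenge and 3.32 (SE 0.63) at day 3. For Lrg1 the difference before challenge was 0.56 within slide 1, and that at day 3 was 2.31 with slide as a term.

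Cp, ceruloplasmin, is the copper-carrying ferroxidase that loads iron onto transferrin. The brighter of its 2 probes, used in the fit, had WT levels of 2.64, 2.67 and 2.87 before challenge and 2.66, 2.29 and 2.90 at day 3, and smSocs3-KO levels of 2.96, 3.15 and 2.94 before challenge and 3.70, 3.96 and 4.07 at day 3. By this probe the smSocs3-KO arrays lay above the WT arrays at both times, by 0.29 (SE 0.18) before challenge and 1.30 (SE 0.18) at day 3. The dimmer probe, for another transcript of the gene, had means of -1.95 and -2.05 in WT and of -1.58 and -1.38 in smSocs3-KO aortas before challenge and at day 3. By this probe the labels overlapped before challenge, with WT levels of -2.11 to -1.76 and smSocs3-KO levels of -1.83 to -1.39. The smSocs3-KO levels at day 3, -1.55 to -1.19, overlapped those before challenge.

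The remaining genes act inside cells or on the interleukin-1 receptor. Pim1, a serine/threonine kinase that promotes cell survival and is a direct Stat3 target, read -2.21, -2.32 and -2.14 in WT and -2.44, -1.59 and -1.53 in smSocs3-KO aortas before challenge, and -1.63, -1.75 and -1.11 in WT and -0.79, -1.76 and 0.41 in smSocs3-KO aortas at day 3. The labels overlapped at both times, with differences of 0.37 (SE 0.45) and 0.78 (SE 0.45) that turned to -0.21 and -0.10 with slide as a term. Il1rn, the antagonist of the interleukin-1 receptor, ranged from -6.26 to -3.84. Only smSocs3-KO replicate 2 at day 3, the highest, was well above background, so no difference is given for it.

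Over the 7 genes in the fit, 5 had every smSocs3-KO array above every WT array before challenge (Slpi, Lcn2, Saa3, Lrg1 and Cp), where 6.48% of all 22761 genes did. The same 5 genes did so at day 3, where 7.86% of all genes did. Nothing is read from these counts, since Slpi and Lcn2 were selected on this difference, Saa3 passed the filter on dim probes through the smSocs3-KO groups alone, and Cp is counted by the brighter of its probes. The median label difference over the 7 genes was 1.23 before challenge and 3.32 at day 3, and that over all genes was 0.00 and -0.08. The first median was also 1.23 with Saa3 at its bound. With slide as a term the day 3 median was 2.31. That term rests on the contrast between smSocs3-KO replicate 1 and replicates 3 and 4 before challenge, the only group that spans both slides.

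Markers of other cell types were read on the same arrays. The list of 14 mesothelial markers, cells that line the outer surface of organs and vessels in body cavities, was higher under the smSocs3-KO label. All 14 were in the fit. Before challenge 9 of them had every smSocs3-KO array above every WT array, where 6.48% of all genes did. At day 3, where label and slide cannot be told apart, 11 did so, beside 7.86% of all genes. Their mean level was -1.44 to 0.71 in WT and 1.29 to 2.51 in smSocs3-KO aortas before challenge, and -1.79 to 0.16 and 1.32 to 1.62 at day 3. WT replicate 3 at day 3, with the lowest mesothelial mean of -1.79, was also the array with the lowest Slpi level of all 12. Lcn2 (1.04) and Saa3 (-3.23) were not low on it, being below only replicate 1 at day 3 among the WT arrays. The part of these markers in the label differences of Slpi, Lcn2 and Saa3 was not tested. Of the hepatocyte markers, 4 of 9 were in the fit, and Alb, Apoa1 and Ttr, which define liver cells, were not well above background on any array. The 4 in the fit, Apoa2, Ahsg, Serpina1a and Cyp2e1, had a mean level of 1.91 to 2.22 in WT and 1.92 to 2.14 in smSocs3-KO aortas before challenge. The day 3 means were 2.17, 2.26 and 2.89 in WT and 2.29, 3.55 and 3.77 in smSocs3-KO aortas.

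**Figure D2:**
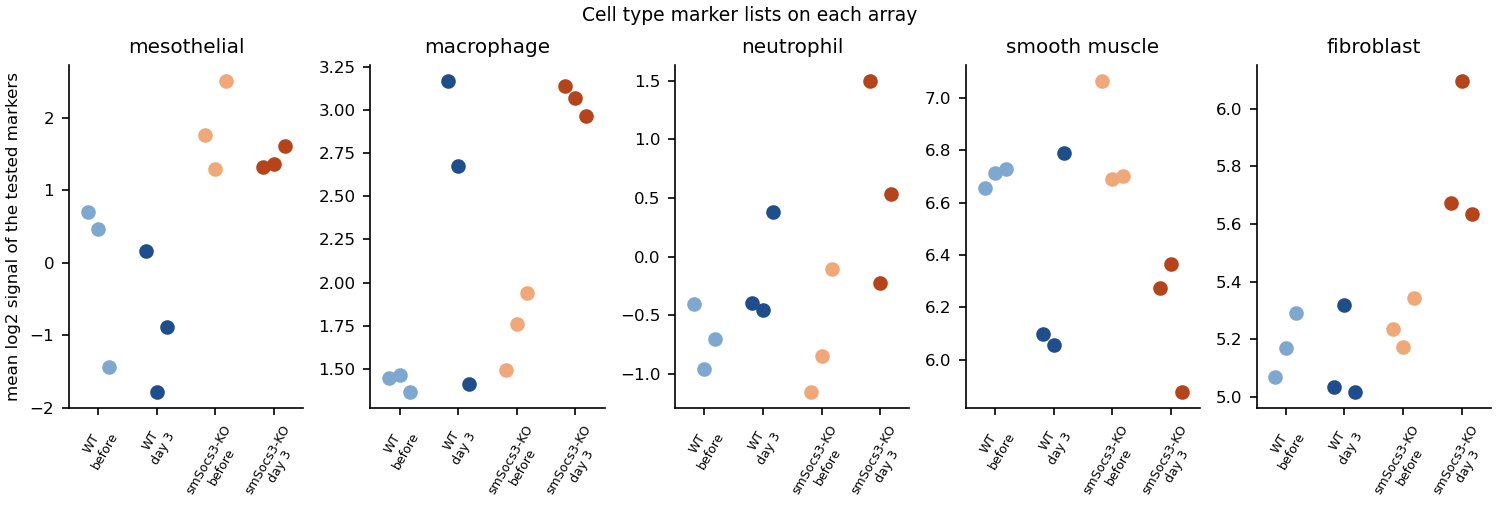
Mean level of the tested markers of 5 cell types on each array (log2 signal minus the 75th percentile of the array), 3 arrays a group. The mesothelial list was at 1.29 or more on all 6 smSocs3-KO arrays and at 0.71 or less on all 6 WT arrays, and the macrophage list was lowest among day 3 arrays in WT replicate 4, at 1.41.

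The response to challenge asks which genes moved between the start and day 3 of infusion within a genotype. In WT aortas no member was called by limma with Benjamini-Hochberg adjustment over all genes, 0 of 7 beside 3.59% of all genes called higher, and 3 of 7 had an unadjusted p under 0.05 (Lcn2, Hp and Lrg1), beside 26.6% of all genes. Lcn2 was estimated higher at day 3 by 2.17 (SE 0.71, limma adjusted p = 0.0898), Hp by 1.73 (SE 0.77, limma adjusted p = 0.18) and Lrg1 by 1.47 (SE 0.63, limma adjusted p = 0.166). Saa3 was at least 1.81-fold higher (limma adjusted p = 0.36), with 2 of the 3 day 3 arrays well above background. That bound was 1.01-fold without WT replicate 1 at day 3 and 3.56-fold without replicate 4, and the fitted difference was 2.44, or 0.59 with normexp correction. Slpi and Cp had estimates below 0, at -0.45 (SE 1.36) and -0.11 (SE 0.18), and that of Pim1 was 0.73 (SE 0.45). All 3 day 3 arrays were above all 3 arrays before challenge for 3 of the 7 genes (Lcn2, Hp and Pim1), where 20.7% of all genes did so.

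WT replicate 4 at day 3 was the lowest of its group for 4 of the 7 genes, Lcn2, Saa3, Hp and Lrg1. The mean of the macrophage markers on it was 1.41, within the 1.36 to 1.46 of the WT arrays before challenge, whereas the other WT arrays at day 3 were at 3.17 and 2.68. Neutrophil markers in the fit went the other way, with a mean of 0.38 on replicate 4 and of -0.39 and -0.46 on replicates 1 and 3. The smooth muscle mean was 6.79 on replicate 4 and 6.10 and 6.06 on the others. Without this array Lcn2 rose by 2.94 (limma adjusted p = 0.0129) and Lrg1 by 2.06 (limma adjusted p = 0.044). The count called was then 2 of 7, where 2268 of all 22761 genes were called higher. The part of the macrophage, neutrophil or smooth muscle markers was not tested. Leaving out any other single array gave a count of 0. Without any of the other WT arrays, or without smSocs3-KO replicate 4 before challenge, 0 to 2 of all 22761 genes were called higher, so these counts say nothing about the members. Without any other smSocs3-KO array, 421 to 1613 genes were called higher and 0 members. Slpi did not keep a direction, with -2.06 without WT replicate 1 at day 3 and 1.36 without replicate 3.

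In smSocs3-KO aortas 3 of the 7 genes rose by day 3, Hp, Lrg1 and Cp, beside 1.71% of all genes called higher. Hp rose 12.4-fold (3.64, SE 0.77, limma adjusted p = 0.0399), Lrg1 rose 11.8-fold (3.56, SE 0.63, limma adjusted p = 0.0246) and Cp rose 1.86-fold (0.89, SE 0.18, limma adjusted p = 0.0384). Saa3 was estimated higher by 4.27 (SE 1.63, limma adjusted p = 0.155), Lcn2 by 1.84 (SE 0.71, limma adjusted p = 0.158) and Pim1 by 1.14 (SE 0.45, limma adjusted p = 0.166). Slpi, already high before challenge, had an estimate of 0.34 (SE 1.36, limma adjusted p = 0.891), and its day 3 levels of 5.18 to 5.64 overlapped the 4.26 to 5.55 before challenge. The groups did not overlap for 4 of the 7 genes (Lcn2, Hp, Lrg1 and Cp), where 14.1% of all genes were higher without overlap. All 7 estimates were above 0, with a median of 1.84, and the median over all genes was -0.06.

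The calls in smSocs3-KO aortas depended on the fit. With the mean of both probes the rise of Cp was 0.545 and lost its call (limma adjusted p = 0.0994). With slide as a term the rises were 3.55 for Hp, 3.23 for Lrg1 and 0.86 for Cp, with limma adjusted p of 0.128, 0.0924 and 0.113, so that 0 of 7 were called. That fit called 39 of all genes higher, against 390 without the term, so the loss was not particular to the members. These are also the differences within slide 2, between the 3 day 3 arrays and the 2 arrays before challenge. No member was called without smSocs3-KO replicate 1 or 3 before challenge or without replicate 5 at day 3, where 39, 30 and 34 of all genes were called higher. Lrg1 alone was called without WT replicate 1, 2 or 3 before challenge, where 127, 121 and 127 of all genes were called higher. It was also called alone without smSocs3-KO replicate 3 at day 3, where 273 of all genes were called higher. Without smSocs3-KO replicate 4 before challenge the calls were Lrg1 and Saa3, beside 302 of all genes called higher. Replicate 5 at day 3 had the highest level of all 12 arrays for 6 of the 7 genes, all but Slpi. Lrg1 kept its call under 16 of 21 alternatives, Hp under 9 and Cp under 7. Slide as a term and leaving out smSocs3-KO replicate 1 before challenge are both counted there, although they gave the same estimates.

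**Figure D3:**
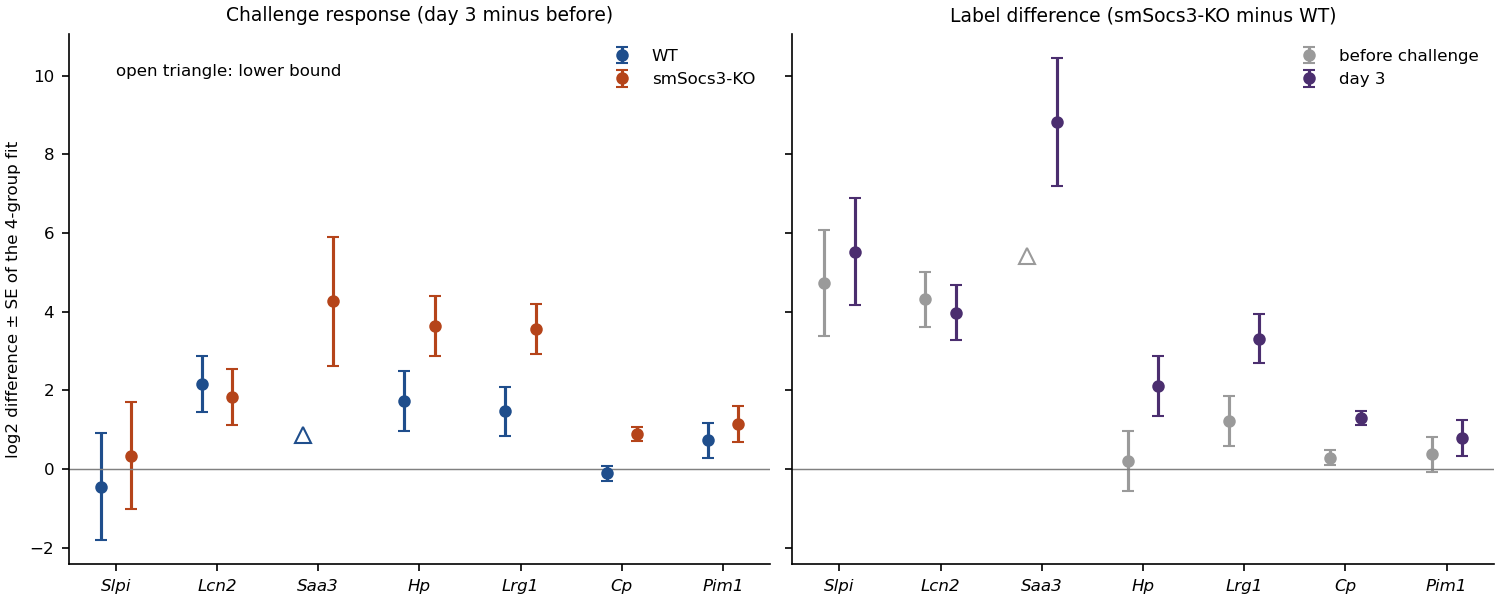
Challenge response in each genotype (left) and difference between genotype labels at each time (right) for the 7 genes in the fit, as log2 differences with the standard error of the 4-group fit, 3 arrays a group. Open triangles are lower bounds for Saa3 against WT arrays on which it was not well above background. Hp, Lrg1, Cp, Slpi and Pim1 had larger estimates in smSocs3-KO than in WT aortas, and Lcn2 had a smaller one. Slpi, Lcn2 and Saa3 had the largest label differences (for Saa3 the bound) before challenge.

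The difference between the 2 responses, smSocs3-KO minus WT, was estimated at 2.09 (SE 0.89) for Lrg1, 1.90 (SE 1.09) for Hp, 1.0 (SE 0.26) for Cp, 0.79 (SE 1.92) for Slpi, 0.41 (SE 0.64) for Pim1 and -0.33 (SE 1.0) for Lcn2. None is given for Saa3, which was not measured above background in WT aortas before challenge. These values come from the same arrays as the label differences and are a description. By limma, 0 of 22761 genes were called for this difference, and 1214 had an unadjusted p under 0.05. A pass in smSocs3-KO aortas and none in WT aortas therefore does not show that the responses of Hp, Lrg1 or Cp differed.

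**Figure D4:**
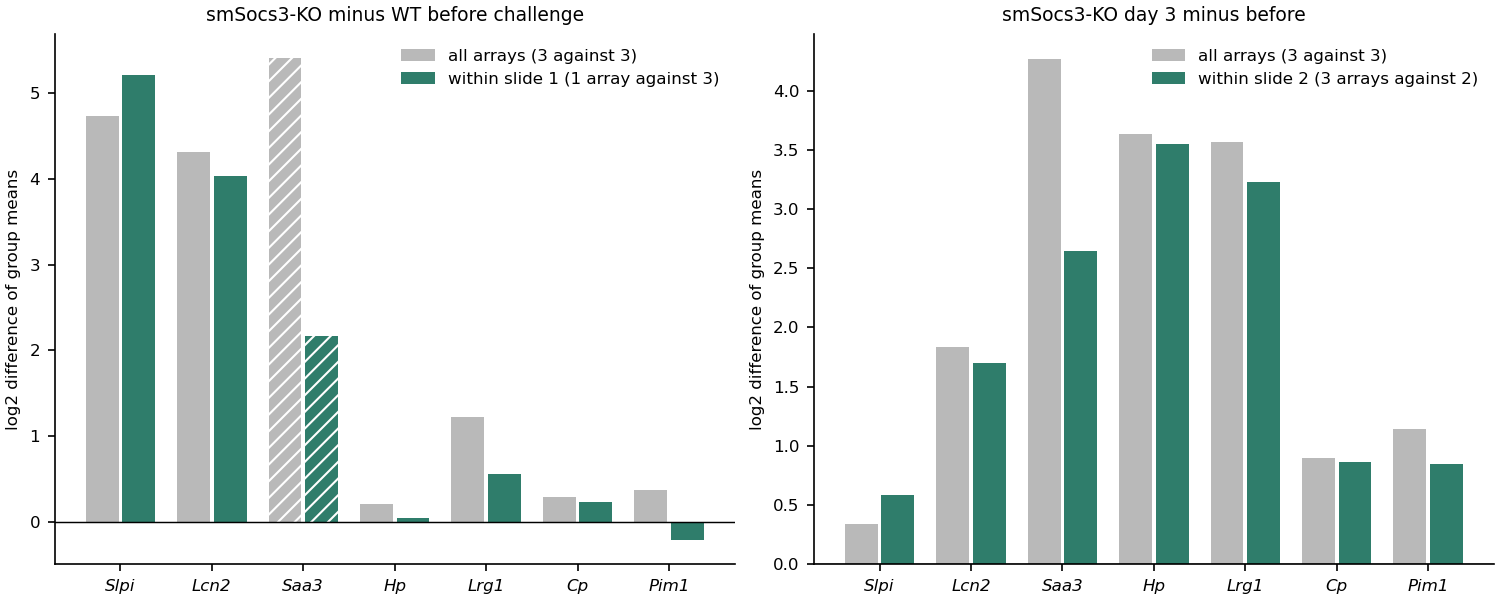
Log2 differences of group means for the 7 genes over all arrays (grey, 3 against 3) and within a slide (green), for smSocs3-KO minus WT before challenge (left, 1 array against 3 on slide 1) and for day 3 minus before challenge in smSocs3-KO aortas (right, 3 arrays against 2 on slide 2). Hatched bars are lower bounds for Saa3, 5.41 over all arrays and 2.17 within slide 1, and the bars of Slpi before challenge were 4.74 and 5.21.

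Markers of cells that enter or make up the wall were read at both times. The mean level of the 10 macrophage markers was 1.49 to 1.94 before challenge and 2.97 to 3.14 at day 3 in smSocs3-KO aortas. Of 14 neutrophil markers 7 were in the fit and Ngp, a granule protein, was not well above background on any array. Their mean was -1.16 to -0.10 before challenge and -0.23 to 1.50 at day 3 in smSocs3-KO aortas, highest in replicate 2, the array on which Il1rn was well above background. In smSocs3-KO aortas the mean of the 7 smooth muscle markers was 6.69 to 7.07 before challenge and 5.87 to 6.36 at day 3. That of the 6 fibroblast markers was 5.17 to 5.34 and 5.64 to 6.10. In WT aortas the smooth muscle mean was 6.65 to 6.73 and 6.06 to 6.79, and the fibroblast mean 5.07 to 5.29 and 5.02 to 5.32. At day 3 in smSocs3-KO aortas the hepatocyte and adipocyte lists were lowest on the array with the lowest Hp. The mean of the 6 adipocyte markers in the fit was 0.74, 2.95 and 2.87 at day 3 in smSocs3-KO aortas, on which the hepatocyte mean was 2.29, 3.55 and 3.77 and Hp read 5.45, 6.87 and 8.37. In WT aortas at day 3 the adipocyte mean was -0.05, 2.95 and 1.83, highest in replicate 3, where Hp was also highest. The hepatocyte mean on these WT arrays was 2.17, 2.26 and 2.89, highest in replicate 4, where Hp was lowest (3.68). Before challenge the adipocyte mean was 0.61 to 1.96 in WT and -0.02 to 2.02 in smSocs3-KO aortas. In neither label was it then highest on the array with the highest Hp. The part of these cell types in the rises of Hp, Lrg1 and Cp was not tested.

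Other acute phase genes were read from a list of 31, of which 23 were in the fit. In WT aortas 1 rose, Mt2, a metal-binding metallothionein, by 1.26 (SE 0.25, limma adjusted p = 0.0329). In smSocs3-KO aortas 7 rose and none fell, among them Serpina3n, a protease inhibitor, by 3.34 (SE 0.55, limma adjusted p = 0.0199), Steap4, a metalloreductase, by 3.28 (SE 0.56, limma adjusted p = 0.023) and Mt2 by 2.45 (SE 0.25, limma adjusted p = 0.0044). The others were Lbp, Mt1, Cd14 and Cfb. The list's median was 0.30 in WT and 2.12 in smSocs3-KO aortas. Of all genes, 3.59% and 1.71% were called higher, respectively. Serpina3n read 2.34, 3.23 and 2.99 before challenge and 5.41, 5.81 and 7.37 at day 3 in smSocs3-KO aortas, highest, like 6 of the members, in replicate 5. Mt2 was called in smSocs3-KO aortas under 20 of 21 alternatives, slide as a term included (2.47, limma adjusted p = 0.017). With slide as a term 3 genes of the list were called there, beside 39 of all genes called higher. Leaving out 1 array gave 3 there without smSocs3-KO replicate 1 or 3 before challenge or replicate 5 at day 3. Those fits called 39, 30 and 34 of all genes higher. The count was 4 without replicate 2 at day 3 and 9 without WT replicate 4 at day 3, where 148 and 1265 of all genes were called higher. In WT aortas the count was 6 without WT replicate 4 at day 3, where 2268 of all genes were called higher. It was 0 without any other WT array or without smSocs3-KO replicate 4 before challenge, fits in which 0 to 2 of all genes were called higher.

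Of 36 genes of the IL-6 and Stat3 pathway, 35 were in the fit. In WT aortas 2 rose, beside 3.59% of all genes called higher (1.71% in smSocs3-KO aortas). Il6, the cytokine that starts the pathway, was not well above background on the WT arrays before challenge and read 2.66, 3.51 and -3.41 at day 3, at least 38.3-fold higher (limma adjusted p = 0.0358), with replicate 4 again the lowest. Timp1, an inhibitor of matrix metalloproteinases, rose by 3.46 (SE 0.66, limma adjusted p = 0.0329). In smSocs3-KO aortas 6 rose and none fell: Il4ra, the interleukin-4 receptor chain, by 3.31 (SE 0.65, limma adjusted p = 0.036), Timp1 by 3.21 (SE 0.66, limma adjusted p = 0.0387), Osmr, the oncostatin M receptor, by 1.32 (SE 0.27, limma adjusted p = 0.0379), and Il6ra, Cebpd and Cebpb. Il6 was above the WT level before any infusion in smSocs3-KO aortas, at -2.63, -1.35 and -1.86 against -5.97, -6.48 and -6.54. With slide as a term 1 gene was called in smSocs3-KO aortas, beside 39 of all genes called higher. Without WT replicate 4 at day 3 the counts were 11 there and 8 in WT aortas, where 1265 and 2268 of all genes were called higher. The count in smSocs3-KO aortas was 0 or 1 without any 1 array before challenge, of either label, or without smSocs3-KO replicate 2 or 5 at day 3. Those fits called 30 to 302 of all genes higher there, against 390 with all arrays. The count in WT aortas was 0 without any other WT array or without smSocs3-KO replicate 4 before challenge, where 0 to 2 of all genes were called higher. The WT counts of 0 therefore say nothing about the list. In smSocs3-KO aortas 302 of all genes were called higher without smSocs3-KO replicate 4 before challenge, where the list's count was 1. Whether the lower counts there were particular to the list was not tested.

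Of 22 genes of the interleukin-1 and NF-kB pathway, 19 were in the fit. In smSocs3-KO aortas 3 of them rose, beside 1.71% of all genes called higher. Il1r2, the decoy receptor for interleukin-1, was not well above background before challenge and was at least 12.5-fold higher at day 3 (limma adjusted p = 0.0428). It passed the filter on dim probes through the smSocs3-KO arrays at day 3 alone, as did Fpr2, given next, so both had to be high in that group to be tested. Il33, an alarmin cytokine, rose by 2.16 (SE 0.39, limma adjusted p = 0.0269) and Irak3, an inhibitor of receptor signalling, by 0.97 (SE 0.18, limma adjusted p = 0.031). In WT aortas limma called 0 genes of this list, and 1 had an unadjusted p under 0.05, where 26.6% of all genes did. Of 27 receptors, targets and relatives of the members, 22 were in the fit. Limma called 0 in WT aortas, where 9 had an unadjusted p under 0.05, and 3 rose in smSocs3-KO aortas. These were Fpr2, a receptor that binds serum amyloid A, by 2.69 (SE 0.55, limma adjusted p = 0.0387), Hmox1, which breaks down haem, by 2.58 (SE 0.52, limma adjusted p = 0.0379) and Cd163, the scavenger receptor for haptoglobin bound to haemoglobin, by 1.64 (SE 0.34, limma adjusted p = 0.0397). With slide as a term 0 genes of either list were called in smSocs3-KO aortas, beside 39 of all genes called higher. Without WT replicate 4 at day 3 the counts in WT and smSocs3-KO aortas were 2 and 4 in the first list and 6 and 8 in the second. That fit called 2268 and 1265 of all 22761 genes higher, respectively. In smSocs3-KO aortas they were 0 or 1 in both lists without any 1 of the 6 arrays before challenge or without smSocs3-KO replicate 2 or 5 at day 3. Those fits called 30 to 302 of all genes higher there, against 390 with all arrays. The 302 were called without smSocs3-KO replicate 4 before challenge, where the count was 1 in each list. Whether the lower counts were particular to these lists was not tested.

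**Figure D5:**
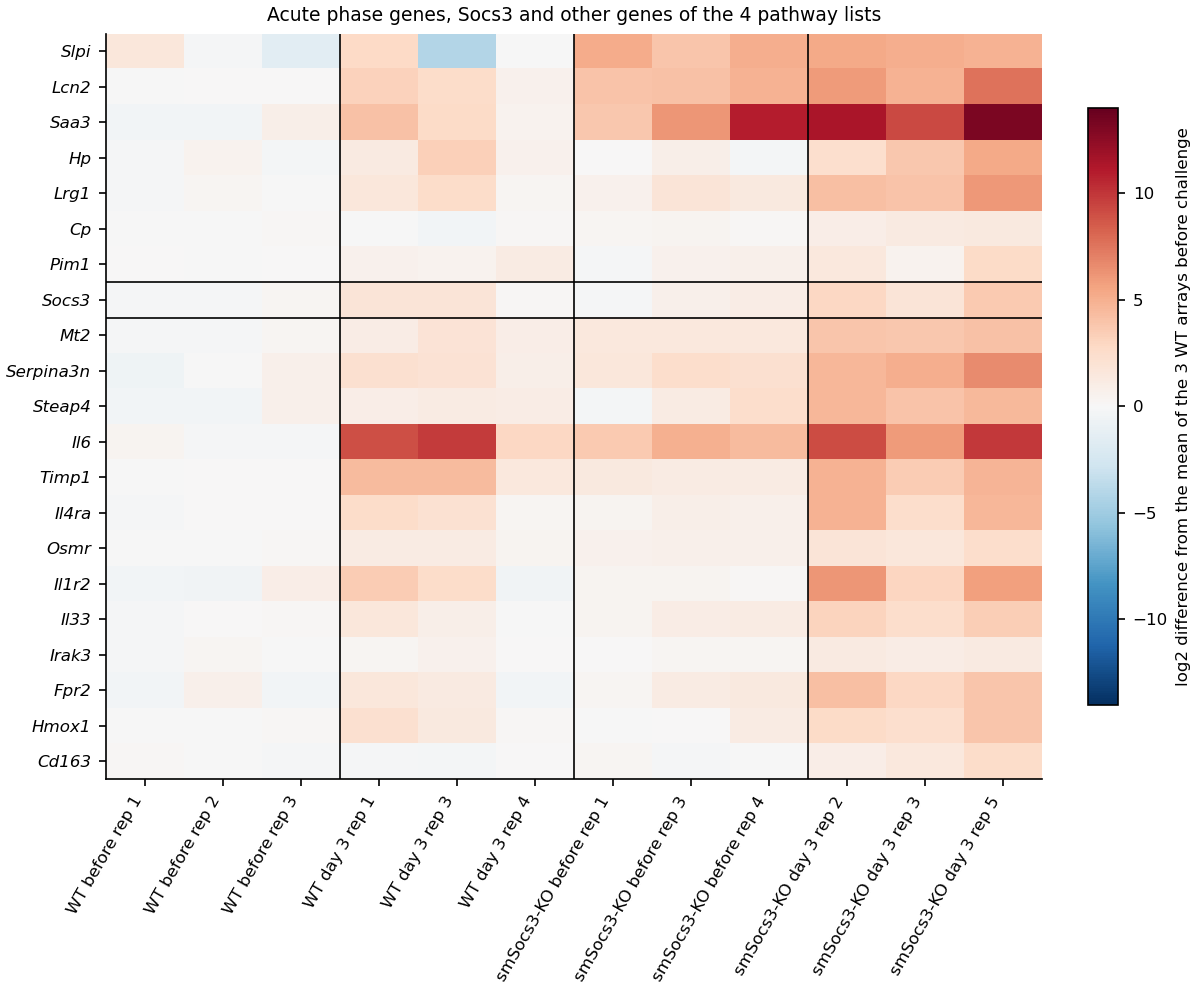
Log2 difference of each gene on each array from the mean of the 3 WT arrays before challenge, for the 7 acute phase genes in the fit (top), Socs3, and the genes named from the 4 pathway lists (bottom). Saa3 and Il6 reached the darkest colours, and WT replicate 4 at day 3 was paler than the other WT arrays at day 3 for Lcn2, Saa3, Lrg1, Il6 and Timp1.

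Likeness of pattern was measured as the root mean square of the log2 difference between 2 profiles over the 12 arrays, each centred on its own mean, among 15700 other genes with a symbol. It is a description, and the arrays share slides and groups. The profiles nearest to Slpi were those of C4bp (1.39), Dmkn (1.40), Prr15l (1.43), Il18r1 (1.54) and Myo5b (1.60), where Slpi itself varied with an SD of 3.01. Those nearest to Lcn2, with an SD of 2.44, were Prg4 (0.790), Dmkn (0.962), Serpina3n (0.976), Serpina3i (0.985) and Anxa8 (0.996). Saa3, with an SD of 4.71, was nearest to Cxcl13 (1.62), and Lcn2 was the next (2.51), before Col6a5 (2.54), Dmkn (2.66) and Prg4 (2.75). Some of these profiles lie partly at background, where levels have no order: Saa3 was well above background on 8 of the 12 arrays, Cxcl13 on 6, Col6a5 on 5, C4bp on 7 and Prr15l on 9, and the other genes named here on all 12. Dmkn, dermokine, was thus among the nearest 5 of all 3 genes, and it was 1 of the 14 genes of the mesothelial list. Its level was -2.26 to -0.91 in WT and 3.49 to 4.13 in smSocs3-KO aortas before challenge, and -1.33 to 1.13 and 3.18 to 5.19 at day 3. Among the members, Lrg1 was the nearest to Lcn2, at 1.25 and in place 21, and Lcn2 was the nearest to Slpi, at 2.08 and in place 36.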

How the data were processed

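Agilent one-colour arrays of aortic RNA were used as deposited: the intensity columns are the processed signals (background-subtracted, linear) that the authors' Feature Extraction wrote (version 10.7.1.1 in the file headers, 9.5.1.1 in the submitters' processing notes). The authors also deposited a table of intensity values, quantile normalized by its equal column medians, which served as an alternative. The gene name of each probe is that of the array design, with mm9 positions.

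Flagged outlier spots were dropped, spots of a probe averaged, log2 taken and the 75th percentile of each array subtracted. A probe was kept where some group had it well above background on each of its arrays (32283 of 55681), and the brightest probe stood for a gene, giving 22761 genes. A 4-group limma fit (limma 3.58.1, R 4.3.3) gave differences, standard errors and p-values, with Benjamini-Hochberg adjustment over all genes and calls at 0.05, and it was tested on simulated data. The members, the gene lists and the tests were chosen with earlier results of these data known. Named genes were all members, up to 3 called genes of largest rise and fall from each of 4 pathway lists, the 5 nearest profiles of Slpi, Lcn2 and Saa3, and Socs3. Il6 levels in smSocs3-KO aortas were added after seeing values. Alternatives were other normalizations, no filter on dim probes, the mean of all probes, slide or replicate number as a block, only the groups compared, an unadjusted p under 0.01 with a fold over 4, each array left out and, chosen after seeing the data, values within a slide. Replicate numbers were not taken to pair the samples, since an aorta can be sampled only once. Whether they mark a shared litter or batch was not tested.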

Additional observations from a re-analysis of the deposited data

Results flagged for a closer look

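Il1rn was the only gene of the set outside the fit, and it gave a signal on 1 array. Its level on smSocs3-KO replicate 2 at day 3 was -3.84, well above background by the scanner's own test, and it was not well above background on the other 11 arrays, the 3 WT arrays before challenge included. The part of the neutrophil markers, highest on the same array, was not tested.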

How the results depend on the processing

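The count of members called in WT aortas was 0 in every alternative that kept all arrays, and 0 to 2 with 1 array left out. With the replicate block and with only the groups compared, 0 of all genes were called in WT aortas, so these counts say nothing about the members. The count in smSocs3-KO aortas was 3, and became 1 (Lrg1) with no filter on dim probes, 1 (Lrg1) with only the groups compared in the fit, 0 with slide as a block and 0 to 3 with 1 array left out. Of all 22761 genes, 390 were called higher there in the main fit. The number was 116 of 34797 with no filter, 323 with only the groups compared, 39 with slide as a block and 30 to 1265 with 1 array left out. The median label difference at day 3 was 2.31 with slide as a block. With 1 array left out that median ranged from 2.66 to 3.71, the median before challenge from 0.953 to 1.56 and the median difference between responses from 0.839 to 1.65. Within slide 1 the median before challenge was 0.556. Pim1 turned to -0.21 before challenge and -0.10 at day 3 with slide as a block. With 1 array left out, estimates turned for Slpi in WT (-2.06 to 1.36) and smSocs3-KO (-0.0661 to 0.58) aortas, Cp in WT aortas (-0.25 to 0.0531), Hp before challenge (-0.0943 to 0.47), and the difference between responses of Slpi (-1.02 to 2.40), Lcn2 (-1.10 to 0.29) and Pim1 (-0.15 to 0.93). Arrays of the same replicate number come from different animals, and their deviations from group means correlated between -0.40 and 0.46. With the replicate number as a block the smSocs3-KO count was 0 (1 of all genes was called higher), the day 3 median 1.95 and the Pim1 difference between responses -0.14. The causes of these changes were not tested beyond the smaller numbers of arrays or genes that some alternatives have. Precision is limited by 3 arrays a group, and Saa3 and Il1rn by signal near background in WT aortas.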
